A study of Mus musculus with 24 samples.

Results

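The comparison described here sets accessible chromatin in MPP4 cells against that in MPP2 cells, over donor cells recovered from both types of transplant recipient. Its groups were set by the sample labels, and the comparison was chosen with earlier results of these data known. It set 6 MPP4 libraries (3 from WT and 3 from IκB– recipients) against 6 MPP2 libraries (3 and 3). These are 12 of the 24 ATAC-seq libraries of the series, and recipient type was a covariate. Of 13905 nuclear regions, 12276 held enough counts to be tested and 1629 did not. ATAC-seq uses the transposase Tn5 to cut and tag open chromatin, so that a region's count reads how accessible it is. All profiled cells were WT CD45.1 donor cells, taken from the femurs and tibias of WT CD45.2 or IκB– recipients that were young at transplantation, 13 to 15 weeks after it, and each library came from 500 to 1500 sorted cells. MPP2 was sorted as Lin–, Sca1+, cKit high, Flt3–, CD150+ and CD48+, and MPP4 as Lin–, Sca1+, cKit high and Flt3+, both within CD45.1+ cells. The genetic change of the IκB– line, the age of the donors and whether the replicates of a group came from separate animals are not stated, so p-values measure the spread between these libraries, which may in part be technical. MPP4 was not gated on CD150 or CD48. In sorted cells measured in bulk, a region that is open in fewer cells and one that is less open in each cell cannot be told apart.

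Multipotent progenitors (MPP) lie downstream of hematopoietic stem cells (HSC) and are grouped by the lineages they favour. MPP2 cells are known for a bias towards megakaryocytes and red cells, a program built on the GATA factors, their cofactor Zfpm1 and the E-box factor Tal1. MPP4 cells, which display the cytokine receptor Flt3, are known for a bias towards lymphocytes and share regulators such as Ikzf1, Bcl11a and Notch1 with early lymphoid cells, while keeping the capacity to form myeloid cells through Cebpa and Spi1.

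MPP2 and MPP4 differed mostly at regions away from gene ends. Some regions at the platelet and red cell genes Cavin2, Pf4, Rab27b and Slc14a1 were more accessible in MPP2, and some at Bcl11a, Notch1, Ikzf1, Cebpa and Cdk6 in MPP4; most regions of the gene lists that hold them were not called. Of all tested regions, 788 (6.42%) passed an adjusted p of 0.05, a call used throughout: 367 (2.99%) were higher in MPP4 and 421 (3.43%) were lower. Which direction had more calls depended on the fit: limma-voom gave 458 higher and 414 lower, depth as a covariate 277 and 265, and the filter at a mean of 20 counts 18 and 52. The test was edgeR's quasi-likelihood F test with Benjamini-Hochberg adjustment, and differences are given as log2 MPP4 minus MPP2 ± SE, so that negative values mean higher accessibility in MPP2. The median difference was 1.24 among the regions called higher and -1.24 among those called lower, against 0.03 over all tested regions. Of these regions, 287 and 322 differed by at least 1. Of tested regions, 57.9% lay at most 1 kb from where a protein-coding gene begins or ends, and 1.46% of these were called (40 or 0.563% higher, 64 or 0.9% lower). Of those further inside genes 11.5% were called (177 or 5.91% higher, 168 or 5.61% lower), and of those outside genes 15.6% (150 or 6.91% higher, 189 or 8.71% lower). In 82 of all tested regions (0.668%) every MPP4 library stood above every MPP2 library, and in 119 (0.969%) every one stood below; 65 and 96 of these were among the called regions. The count of calls fell to 461 without IκB– MPP2 replicate 1, 485 without IκB– MPP4 replicate 1 and 444 without IκB– MPP4 replicate 3. In all, 293 regions (2.39%; 117 higher and 176 lower) kept their call whichever of the 12 libraries was dropped.

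**Figure D1:**
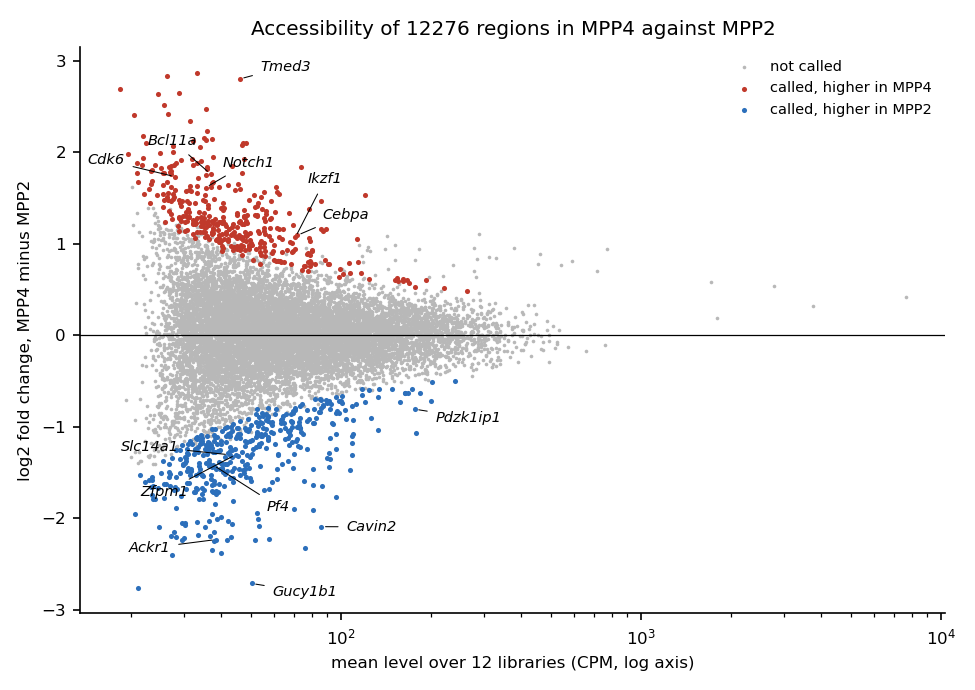
Each point is 1 of 12276 tested regions, with its mean level over the 12 libraries on a log axis (CPM, counts scaled to 1000000 per library) against its log2 difference MPP4 minus MPP2. The 367 regions called higher in MPP4 (red) and the 421 called lower (blue) lie mostly at low levels, and named regions such as Cavin2 and Gucy1b1 sit far below the line at 0.

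Depth was low. Nuclear counts ran from 126519 to 673485 over the 12 libraries, and the median region held 16.7 counts per library over all tested regions, 11.1 among those higher in MPP4 and 13.8 among those lower. Nuclear and mitochondrial counts and the shares of counts near gene ends, inside genes, outside genes and on chromosome X did not separate the subsets in exact two-sided permutation tests within recipient types (p 0.085 to 0.795, adjusted 0.51 to 0.795; 400 arrangements, smallest possible p 0.005). A count of 0 in a library allows up to 3 counts, worth 4.53 to 25.3 CPM over the 12 libraries, for counting error only. WT MPP4 replicate 1 stood apart with 61.1% of its counts near gene ends; no other of the 12 libraries was as low.

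The gate itself could be checked at few genes. Flt3, the receptor that separates the sorts, had 3 tested regions, all with a positive difference and none of them called. Of those inside the gene, the first (chr5:147341072-147341291) differed by 1.20 ± 0.43 (adjusted p = 0.0864) and the second (chr5:147366418-147366731) by 0.75 ± 0.25 (adjusted p = 0.0596); the region at an end of the gene (chr5:147400166-147400583) differed by 0.54 ± 0.23 (adjusted p = 0.187). Levels of the first ranged over 5.98 to 26.3 CPM (median 13.3) in MPP2 and 15.3 to 62.3 CPM (median 28.7) in MPP4, so the groups overlapped. Without IκB– MPP4 replicate 2 both regions inside the gene were called, and without WT MPP2 replicate 3, or with the replicate number as a block or limma-voom, the second was. Kit, the stem cell factor receptor present on both sorts, gave 0.09 ± 0.32, adjusted p = 0.922, and -0.14 ± 0.36, adjusted p = 0.9, at its pair of regions by a gene end. Ptprc, which encodes CD45, gave -0.06 ± 0.24, adjusted p = 0.933, and 0.42 ± 0.26, adjusted p = 0.436. The region of Slamf1, which encodes CD150, was below the count filter, and Cd48 and Ly6a, which encodes Sca1, were not matched to a region here.

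The promoters of Ackr1, Tmcc2, Pf4 and Cebpa are printed because a called region overlaps each of them and because they show a match to the GATA motif, to the E-box or to neither; they were chosen after their values were seen. Each runs 5′ to 3′ on the strand of its gene from 250 bases before the start site to 50 after it (RefSeq, GRCm38.p6), with matches to GATAAG and to the E-box CAGCTG, on either strand, in capitals.
Ackr1 (chr1:173333454-173333753, minus strand), a chemokine-binding receptor of red cells: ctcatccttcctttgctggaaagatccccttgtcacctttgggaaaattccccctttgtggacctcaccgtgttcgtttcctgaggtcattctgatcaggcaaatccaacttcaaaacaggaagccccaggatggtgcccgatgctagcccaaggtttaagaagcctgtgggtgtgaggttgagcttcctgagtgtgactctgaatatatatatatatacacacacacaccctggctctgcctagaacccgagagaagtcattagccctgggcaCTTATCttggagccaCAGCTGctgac
Tmcc2 (chr1:132367899-132368198, minus strand), a transmembrane protein with coiled coils: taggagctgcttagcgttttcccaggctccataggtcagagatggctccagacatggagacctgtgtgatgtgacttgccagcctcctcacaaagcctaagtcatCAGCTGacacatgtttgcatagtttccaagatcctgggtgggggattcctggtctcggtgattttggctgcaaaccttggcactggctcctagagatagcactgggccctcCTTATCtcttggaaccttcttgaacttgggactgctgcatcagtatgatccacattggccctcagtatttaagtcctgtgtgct
Pf4 (chr5:90772185-90772484, plus strand), a platelet chemokine: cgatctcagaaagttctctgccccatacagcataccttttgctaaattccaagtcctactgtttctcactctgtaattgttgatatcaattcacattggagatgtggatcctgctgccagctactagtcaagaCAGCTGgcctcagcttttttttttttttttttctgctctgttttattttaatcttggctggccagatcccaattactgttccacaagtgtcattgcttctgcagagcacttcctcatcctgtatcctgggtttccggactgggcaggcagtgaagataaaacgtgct
Cebpa (chr7:35119043-35119342, plus strand), a myeloid transcription factor: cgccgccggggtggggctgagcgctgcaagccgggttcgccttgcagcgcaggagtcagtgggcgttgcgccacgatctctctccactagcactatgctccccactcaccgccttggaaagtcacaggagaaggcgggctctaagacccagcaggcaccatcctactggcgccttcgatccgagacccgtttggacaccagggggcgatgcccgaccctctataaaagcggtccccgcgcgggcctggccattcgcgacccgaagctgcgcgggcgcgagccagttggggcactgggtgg
In Ackr1 the GATAAG match, read on the opposite strand, starts 24 bases after the start site and the E-box 39 bases after it, and both lie inside the region that was lower in MPP4. In Tmcc2, whose printed promoter lies inside the gene, the GATAAG match starts 34 bases before the start site and inside the called region, while the E-box lies outside that region; the E-box of Pf4 also lies outside its region. Cebpa holds neither run of letters. A match is a run of letters only, not a bound site.

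At the Ackr1 promoter region (chr1:173333348-173333685), which also lies by the neighbouring gene Cadm3, the libraries gave 74.1, 62.8 and 59.8 CPM in WT MPP2 and 48.3, 63.5 and 67.3 in IκB– MPP2. MPP4 gave 38.9, 26.8 and 10.3 in WT and 9.01, 0 and 0 in IκB– recipients. Every MPP2 library stood above every MPP4 library, and the difference was -2.23 ± 0.38 (adjusted p = 0.000146). IκB– MPP4 replicates 2 and 3 held no counts, which allows levels of up to 25.3 and 10.1 CPM. The Tmcc2 region (chr1:132367745-132368051) gave 69.5, 59.4 and 89.7 CPM in WT MPP2 and 52.8, 127 and 76.1 in IκB– MPP2. MPP4 gave 54.5, 26.8 and 61.9 in WT and 24.03, 25.3 and 10.1 in IκB– recipients. WT MPP4 replicates 1 and 3 overlapped with the MPP2 libraries there, and the difference was -1.23 ± 0.31 (adjusted p = 0.00801).

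Of the regions that overlap a promoter of the same table, 31 were called higher in MPP4, over 41 promoters, and 56 lower, over 67 promoters; 6236 tested regions overlapped 8187 promoters. GATAAG stood in 9 of the 67 promoters at regions lower in MPP4 (13.4%) and in 0 of the 41 at regions higher in MPP4, against 4.01% of the promoters at tested regions and 7.44% of all 32851 promoters of the table. TGGGAA, the core bound by Ikaros proteins, stood in 35.8% of the promoters at lower and 14.6% of those at higher regions (20.7% at tested regions, 25.6% of all). TGTGGT, the RUNX core, stood in 20.9% and 9.76% (11.2% and 16.8%), and CAGCTG in 16.4% and 17.1% (13.6% and 16.3%). GGGCGG, the SP box of CpG-rich promoters, stood in 46.3% at lower and 70.7% at higher regions, against 73.7% at tested regions and 35.7% of all promoters. These are shares of few promoters, some of which overlap each other, out of 18 motifs searched on both strands, given as a description.

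Megakaryocyte and red cell genes were the group with the most regions lower in MPP4. Of 60 listed genes 37 had a tested region; of their 61 regions 10 were called lower, 1 was called higher and the rest were not called (18.0% called, against 6.42% of all tested regions, median -0.19 against 0.03). By sign, 28 differences were positive and 33 negative. The regions called lower include those of Cavin2, Pf4, Rab27b (a pair), Tuba8, Slc14a1, Rhag, Samd14 and Zfpm1, and the one called higher belongs to Ctse. With only the 18 of 61 list regions within 1 kb of a gene end, Pf4 alone remained among those called. Of all tested regions, 1.46% were called there, 11.5% inside genes and 15.6% outside genes, so the 6.42% mixes places with unlike shares. Without IκB– MPP4 replicate 1 the list had 7 calls and without IκB– MPP4 replicate 3 it had 6, and with DESeq2 the calls at Samd14, Rhag and the second Rab27b region were lost.

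Of the platelet genes, Cavin2, a coat protein of caveolae that is abundant in platelets, had a region inside the gene (chr1:51300260-51300616) with 183, 129 and 144 CPM in WT MPP2 and 145, 119 and 108 in IκB– MPP2. MPP4 gave 38.9, 61.2 and 41.3 in WT and 24.03, 33.7 and 6.76 in IκB– recipients. Every MPP2 library was above every MPP4 library, a 4.27-fold difference (-2.09 ± 0.25, adjusted p = 3.93e-07). Pf4, the chemokine stored in platelet alpha granules, had its region over the start of the gene (chr5:90772329-90772586), with 39.4, 89.2 and 47.9 CPM in WT MPP2 and 63.4, 31.8 and 55.6 in IκB– MPP2. MPP4 gave 0, 42.1 and 15.5 in WT and 21.02, 33.7 and 10.1 in IκB– recipients. The groups overlapped, with WT MPP4 replicate 1 at 0 and replicate 2 of both MPP4 groups within the MPP2 range, and the difference was -1.42 ± 0.35 (adjusted p = 0.0085). Gucy1b1, which encodes a subunit of the nitric oxide receptor guanylate cyclase, is not on the list and was chosen as one of the 12 regions of smallest p in this direction, while P2ry12, a platelet gene also outside the list, was higher in MPP4. The Gucy1b1 region, inside the gene (chr3:82061457-82061899), gave 113, 116 and 53.8 CPM in WT MPP2 and 90.6, 71.5 and 81.9 in IκB– MPP2. MPP4 gave 15.6, 22.9 and 10.3 in WT and 21.02, 8.42 and 0 in IκB– recipients. Its difference was -2.71 ± 0.34 (adjusted p = 5.05e-07), and no MPP4 library reached the MPP2 range.

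Rab27b, a small GTPase needed for the release of platelet granules, had a pair of called regions inside the gene. The first (chr18:70055148-70055417) ran from 63.5 to 83.02 CPM (median 70.6) in MPP2 and from 8.42 to 85.6 CPM (median 21.7) in MPP4, with a difference of -1.19 ± 0.32 (adjusted p = 0.014). It was called in 11 of 12 fits that each dropped 1 library (highest adjusted p 0.0644, without IκB– MPP4 replicate 3). The second (chr18:70101421-70101696) ran from 35.9 to 75.5 CPM (median 56.7) in MPP2 and from 5.16 to 93.4 CPM (median 11.7) in MPP4. Its difference was -1.41 ± 0.40 (adjusted p = 0.0238), and it was called in 9 of the 12 (highest adjusted p 0.0915, without IκB– MPP2 replicate 1). In both, WT MPP4 replicate 1 was the MPP4 library with the highest level, at 85.6 and 93.4 CPM, above every MPP2 library. The remaining tested Rab27b region, also inside the gene, was not called, at -0.55 ± 0.23 (adjusted p = 0.164). Tuba8, an alpha tubulin, differed by -0.84 ± 0.22 (adjusted p = 0.0102), with overlapping levels of 59.8 to 146 CPM (median 115) in MPP2 and 31.1 to 75.1 CPM (median 65.8) in MPP4.

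Of the red cell genes, Slc14a1, the urea transporter of the red cell membrane, had a region inside the gene (chr18:78123181-78123475) with 69.5, 59.4 and 59.8 CPM in WT MPP2 and 54.3, 55.6 and 70.2 in IκB– MPP2. MPP4 gave 15.6, 34.4 and 30.97 in WT and 27.03, 16.8 and 16.9 in IκB– recipients. The subsets did not overlap, and the difference was -1.31 ± 0.29 (adjusted p = 0.00285). Rhag, an ammonia channel of the Rh complex in the same membrane, had a region 4.08 kb from the gene (chr17:40806637-40807014) with 65.8 to 119 CPM (median 69.4) in MPP2 and 6.76 to 61.2 CPM (median 42.3) in MPP4. These ranges did not overlap either, but the difference of -0.95 ± 0.29 (adjusted p = 0.0371) was called in 8 of the 12 (highest adjusted p 0.203, without IκB– MPP4 replicate 3). Samd14, a sterile alpha motif protein expressed in erythroid precursors, differed by -1.29 ± 0.39 (adjusted p = 0.0327) and was called in 9 of the 12 (highest adjusted p 0.16, without IκB– MPP2 replicate 3).

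Among the transcription factors of the list, Zfpm1, the GATA cofactor also called FOG1, had a region inside the gene (chr8:122321614-122321964) with 60.2, 92.5 and 77.8 CPM in WT MPP2 and 51.3, 55.6 and 32.2 in IκB– MPP2. MPP4 gave 70.05, 30.6 and 51.6 in WT and 15.02, 0 and 0 in IκB– recipients. WT MPP4 replicates 1 and 3 lay within the MPP2 range, and 2 of 3 IκB– MPP4 libraries were at 0. The combined difference was -1.31 ± 0.35 (adjusted p = 0.0165), called in 10 of the 12 (highest adjusted p 0.0655, without IκB– MPP2 replicate 1). The other tested Zfpm1 regions were not called, at 0.17, -0.66 and 0.38 (adjusted p = 0.656, 0.240 and 0.635). Ctse, a protease of red cell precursors, was the exception in direction: 7.94 to 16.6 CPM (median 10.7) in MPP2 and 10.3 to 70.05 CPM (median 45.6) in MPP4. Its difference was 1.78 ± 0.43 (adjusted p = 0.00607), called in 11 of the 12 (highest adjusted p 0.0566, without IκB– MPP4 replicate 1). The other tested Ctse region was not called, at 0.06 (adjusted p = 0.958).

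Several central genes of this program did not pass the test. Gata2, the GATA factor of stem and progenitor cells, gave -1.04 ± 0.46 (adjusted p = 0.205) at its region of smallest p, with 19.6 to 53.8 CPM (median 34.1) in MPP2 and 0 to 54.5 CPM (median 22.2) in MPP4. The erythroid factor Klf1 gave -0.24 ± 0.27 (adjusted p = 0.715), Tal1 -0.35 ± 0.22 (adjusted p = 0.429), the platelet integrin gene Itga2b -0.25 ± 0.29 (adjusted p = 0.719) and the erythropoietin receptor gene Epor -0.32 ± 0.33 (adjusted p = 0.683). A region 23.95 kb beyond Tal1 (chr4:115095705-115096658) was called lower in MPP4, but it is counted under the nearer gene Pdzk1ip1, with the stem cell genes. Of the regions with positive differences only the one at Ctse passed, and the 5 of smallest p that did not were looked up after the values were seen. Fli1, an ETS factor of megakaryocytes, gave 0.98 (adjusted p = 0.0904), the tetraspanin gene Cd9 0.78 (adjusted p = 0.135) and the thrombin receptor gene F2r 0.55 (adjusted p = 0.188). Plek, the platelet protein pleckstrin, gave 0.58 (adjusted p = 0.220) and Lmo2, a partner of Tal1, 0.73 (adjusted p = 0.257). Gata1 was not matched to a region here.

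**Figure D2:**
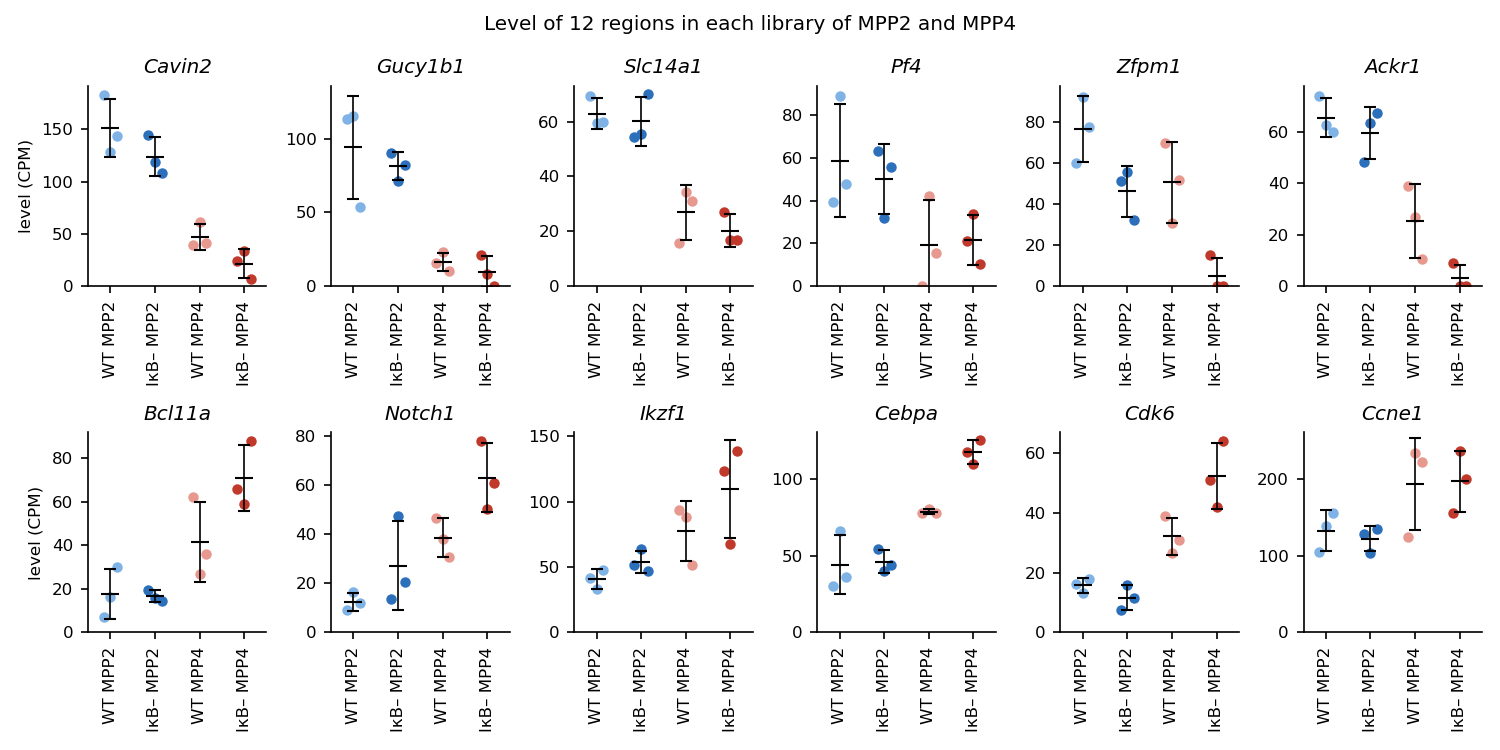
Level (CPM) of 12 regions in each library, for WT and IκB– recipients (3 libraries a group; bars: mean ± SD). In the upper row, Cavin2, Gucy1b1, Slc14a1 and Ackr1 separate MPP2 (blue) from MPP4 (red) in every library while Pf4 and Zfpm1 do not; in the lower row, Cebpa and Cdk6 separate the subsets and Bcl11a, Notch1, Ikzf1 and Ccne1 overlap.

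Lymphoid regulators included Bcl11a, Notch1 and Ikzf1 among the regions higher in MPP4. Of 48 listed genes 23 had a tested region; of their 43 regions 6 were called higher, 1 was called lower and the others were not called (16.3% called, against 6.42% of all tested regions, median 0.17 against 0.03). Of the 43, 15 lay within 1 kb of a gene end. Of all tested regions, 1.46% were called there, 11.5% inside genes and 15.6% outside genes. Bcl11a, a zinc finger factor needed for B cell development, had a region 26.8 kb outside the gene (chr11:24200326-24200594) with 6.95, 16.5 and 29.9 CPM in WT MPP2 and 19.6, 15.9 and 14.6 in IκB– MPP2. MPP4 gave 62.3, 26.8 and 36.1 in WT and 66.1, 58.95 and 87.8 in IκB– recipients. WT MPP4 replicate 2 fell inside the MPP2 range and the other MPP4 libraries were above it; the difference was 1.76 ± 0.35 (adjusted p = 0.000761). The other tested Bcl11a regions were not called, at -0.36, 0.50 and -0.95 (adjusted p = 0.583, 0.486 and 0.155). Notch1, the receptor that commits progenitors to the T lineage, had a region 9.47 kb outside the gene (chr2:26513289-26513675) with 9.26, 16.5 and 11.96 CPM in WT MPP2 and 13.6, 47.7 and 20.5 in IκB– MPP2. MPP4 gave 46.7, 38.2 and 30.97 in WT and 78.1, 50.5 and 60.8 in IκB– recipients. The MPP2 levels were lower except in IκB– MPP2 replicate 2, and the difference was 1.62 ± 0.35 (adjusted p = 0.00215).

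Ikzf1 encodes Ikaros, a zinc finger factor required for lymphocytes, and its region inside the gene (chr11:11763105-11763696) gave 41.7, 33.03 and 47.9 CPM in WT MPP2 and 51.3, 63.5 and 46.8 in IκB– MPP2. MPP4 gave 93.4, 87.9 and 51.6 in WT and 123, 67.4 and 139 in IκB– recipients. Of the MPP4 libraries only WT MPP4 replicate 3 lay below the highest MPP2 library, and the difference was 1.07 ± 0.23 (adjusted p = 0.00223). None of the other 4 tested Ikzf1 regions was called (-0.44 to 0.45). Calls at the remaining lymphoid regions were lost without some single libraries. A second Notch1 region, inside the gene (chr2:26483298-26483693), differed by 0.94 ± 0.30 (adjusted p = 0.0436) and was called in 4 of the 12 (highest adjusted p 0.27, without IκB– MPP4 replicate 1). Ikzf2, which encodes the Ikaros relative Helios, differed by 0.94 ± 0.30 (adjusted p = 0.044) and was called in 5 of the 12 (highest adjusted p 0.189, without WT MPP2 replicate 1). Runx3, a RUNX factor of T and NK cells, differed by 1.36 ± 0.44 (adjusted p = 0.0478) and was called in 4 of the 12 (highest adjusted p 0.25, without IκB– MPP4 replicate 3).

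Mef2c, a MADS-box factor with a role in lymphoid progenitors, had 1 of its 4 tested regions called, in the other direction, with 7.94 to 95.8 CPM (median 81.01) in MPP2 and 10.3 to 62.3 CPM (median 37.1) in MPP4 (chr13:83518052-83518514, inside the gene). Its difference was -0.96 ± 0.30 (adjusted p = 0.0443), and it was called in 5 of the 12 (highest adjusted p 0.151, without IκB– MPP2 replicate 1). IκB– MPP2 replicate 2 was the lowest MPP2 library at 7.94 CPM. The other Mef2c regions were not called, at 0.61 (adjusted p = 0.089), 0.65 (adjusted p = 0.267) and -0.69 (adjusted p = 0.219). Dntt, the terminal transferase of early lymphocytes, gave 0.55 ± 0.31 (adjusted p = 0.352) and Satb1, a chromatin organizer of lymphoid progenitors, 0.66 ± 0.34 (adjusted p = 0.298); neither passed. Il7r, the interleukin 7 receptor gene, was not matched to a region here. The list had 3 calls without WT MPP2 replicate 2, IκB– MPP2 replicate 1 or IκB– MPP4 replicate 1, 4 without IκB– MPP2 replicate 2 or 3 or IκB– MPP4 replicate 3, and 0 of 15 with regions within 1 kb of a gene end alone, where 1.46% of all such regions were called. With DESeq2 the calls at Bcl11a, Ikzf1 and the Notch1 region outside the gene held, and those at the second Notch1 region, Ikzf2, Runx3 and Mef2c were lost.

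Of 21 regions at myeloid genes (12 of 32 genes tested), 2 were called higher and 0 lower, a share of 9.52% near the 6.42% of all tested regions (median 0.30 against 0.03). Cebpa, the factor that commits progenitors to granulocytes and monocytes, was more accessible at its promoter (chr7:35119022-35119411), with 30.1, 66.1 and 35.9 CPM in WT MPP2 and 54.3, 39.7 and 43.9 in IκB– MPP2. MPP4 gave 77.8, 80.3 and 77.4 in WT and 117, 109 and 125 in IκB– recipients. Every MPP4 library was above every MPP2 library, a 2.13-fold difference (1.09 ± 0.23, adjusted p = 0.00159). Csf1r, the receptor for the macrophage growth factor, had a region inside the gene (chr18:61108569-61108753) with 2.32 to 35.1 CPM (median 19.1) in MPP2 and 33.7 to 54.1 CPM (median 38.6) in MPP4. Its difference was 1.25 ± 0.39 (adjusted p = 0.0438), and it was called in 5 of the 12 (highest adjusted p 0.16, without IκB– MPP2 replicate 1). It was not called with DESeq2. Spi1, which encodes PU.1, gave 0.65 ± 0.34 (adjusted p = 0.306) and Irf8, a factor of dendritic cells and monocytes, -0.03 ± 0.38 (adjusted p = 0.983); neither passed, and Mpo was not matched to a region here.

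Of 28 regions at stem cell genes (14 of 29 genes tested), 2 were called lower in MPP4 and 0 higher, a share of 7.14% near the 6.42% of all tested regions (median 0.09 against 0.03). Pdzk1ip1 encodes a small membrane protein, and its region 1.81 kb from the gene (chr4:115095705-115096658) also lies 23.95 kb beyond the neighbouring gene Tal1. It gave 219.9, 248 and 239 CPM in WT MPP2 and 216, 214 and 190.2 in IκB– MPP2. MPP4 gave 125, 191 and 186 in WT and 90.1, 135 and 60.8 in IκB– recipients. WT MPP4 replicate 2 just reached the lowest MPP2 library, and the difference was -0.81 ± 0.18 (adjusted p = 0.00238). Etv6, an ETS family repressor needed for HSC survival, had a region inside the gene (chr6:134226787-134227142) with 23.8 to 72.7 CPM (median 60.1) in MPP2 and 3.38 to 62.3 CPM (median 16.2) in MPP4 and a difference of -1.46 ± 0.34 (adjusted p = 0.00493). Meis1, Mecom and Hlf, factors of stem cell self-renewal, did not pass, at 0.59 ± 0.24 (adjusted p = 0.153), 0.09 ± 0.23 (adjusted p = 0.896) and 0.38 ± 0.24 (adjusted p = 0.426).

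Of 33 regions at the 20 cell cycle genes, 2 were called higher in MPP4 and 0 lower, a share of 6.06% near the 6.42% of all tested regions (median 0.11 against 0.03). Cdk6, a kinase that brings quiescent progenitors into cycle, had a region inside the gene (chr5:3502670-3502871) with 16.2, 13.2 and 17.9 CPM in WT MPP2 and 7.55, 15.9 and 11.7 in IκB– MPP2. MPP4 gave 38.9, 26.8 and 30.97 in WT and 51.1, 42.1 and 64.2 in IκB– recipients. The subsets did not overlap, and the difference was 1.73 ± 0.40 (adjusted p = 0.00378); the other tested Cdk6 regions, at 0.28 and 0.42, were not called. Ccne1, which encodes cyclin E1, had its region over the start of the gene, where it covers the whole promoter of the RefSeq table (chr7:38107376-38107993), with 104, 139 and 156 CPM in WT MPP2 and 128, 103 and 135 in IκB– MPP2. MPP4 gave 125, 233 and 222 in WT and 156, 236 and 199 in IκB– recipients. The levels overlapped, since WT MPP4 replicate 1 fell within the MPP2 range, and the difference of 0.62 ± 0.17 (adjusted p = 0.0196) was called in 7 of the 12 (highest adjusted p 0.0886, without WT MPP2 replicate 1). It was not called with depth as a covariate (adjusted p = 0.0513).

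**Figure D3:**
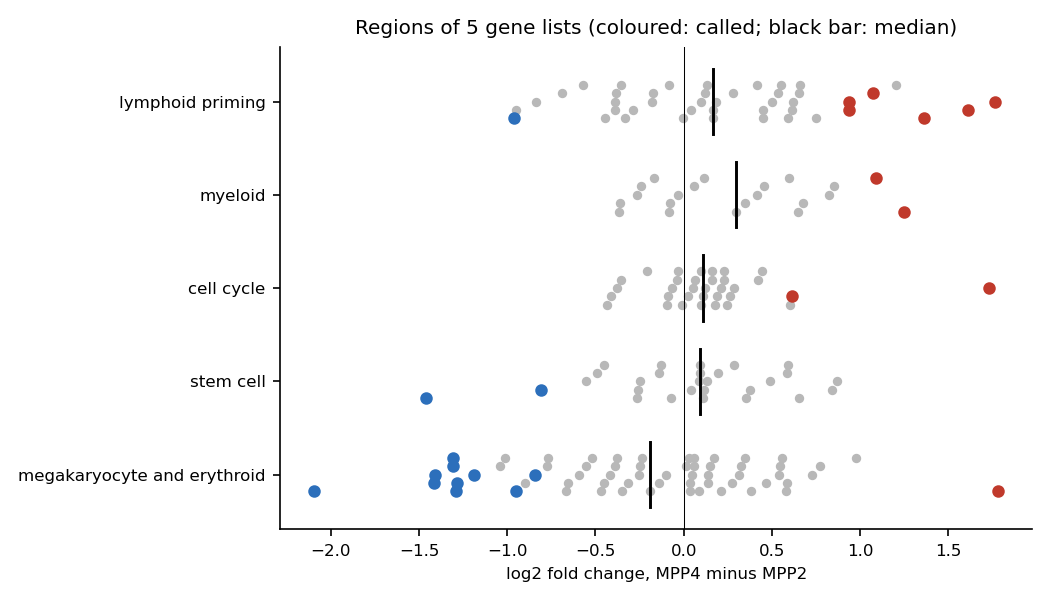
Every tested region of 5 gene lists by its log2 difference MPP4 minus MPP2, with called regions coloured (red higher, blue lower) and the list's median as a black bar. The megakaryocyte and erythroid list has 10 called regions to the left and 1 to the right (median -0.19), and the lymphoid list 6 to the right and 1 to the left (median 0.17).

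Markers of mature and stromal cells were matched to few regions. Of 26 such genes 7 had a region, and 1 of these, 5.14 kb from Siglech (chr7:55784590-55784940), a surface lectin of plasmacytoid dendritic cells, was called (1 of 7 tested regions or 14.3%, against 6.42% of all tested regions and 15.6% of those outside genes). It gave 16.2, 13.2 and 11.96 CPM in WT MPP2 and 12.1, 47.7 and 26.3 in IκB– MPP2. MPP4 gave 70.05, 61.2 and 30.97 in WT and 141, 25.3 and 111 in IκB– recipients. WT MPP4 replicate 3 and IκB– MPP4 replicate 2 were inside the MPP2 range, and the difference was 2.10 ± 0.33 (adjusted p = 5.6e-05). The summed level of all 7 regions was 251 to 365 CPM in MPP2 and 268 to 417 in MPP4; without Siglech it was 234 to 318 and 218 to 286. Among the genes not matched to a region here were Cd3e, Ly6g and Adgre1. The part of such cells in any result was not tested.

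The regions with the strongest evidence lay mostly outside these lists. Higher in MPP4, the region of smallest p was 31.5 kb from Tmed3, a protein of the secretory pathway (chr9:89667369-89667696), with 16.2, 6.61 and 0 CPM in WT MPP2 and 12.1, 7.94 and 17.6 in IκB– MPP2. MPP4 gave 101, 34.4 and 51.6 in WT and 141, 58.95 and 105 in IκB– recipients. No MPP2 library reached the MPP4 range, and the difference was 2.80 ± 0.35 (adjusted p = 5.05e-07). Il17ra, the receptor subunit for interleukin 17, followed with a region inside the gene (chr6:120473493-120473857) that gave 43.99, 16.5 and 35.9 CPM in WT MPP2 and 34.7, 31.8 and 32.2 in IκB– MPP2. MPP4 gave 85.6, 76.5 and 129 in WT and 132, 67.4 and 199 in IκB– recipients. Again the subsets did not overlap, and the difference was 1.84 ± 0.26 (adjusted p = 5.58e-06). Next came a region 361 kb from any protein-coding gene end, nearest to Prl5a1 (chr13:28512579-28512989), at 1.47 ± 0.21 (adjusted p = 1.16e-05), and one 4.35 kb from Snx5, a sorting nexin (chr2:144245481-144245777), at 2.08 ± 0.31 (adjusted p = 2.17e-05).

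Regions of smaller evidence in the same direction included Slc35b4, a nucleotide sugar transporter (1.63 ± 0.25, adjusted p = 4.4e-05), which was the only one of the 12 within 1 kb of a protein-coding gene's end and did not overlap between subsets. Inside App, which encodes the amyloid precursor, the difference was 2.10 ± 0.33 (adjusted p = 4.68e-05), and inside Tcf7l2, a transcription factor of the Wnt pathway, it was 2.65 ± 0.47 (adjusted p = 0.0002). Regions near Gm826 and Plpp3, a lipid phosphatase, gave 2.87 and 2.84, and one nearest to Gm9376 gave 1.57 (adjusted p 3.47e-05 to 0.000195). The App, Tcf7l2, Gm826, Plpp3 and Siglech libraries overlapped between subsets. All 12 regions of smallest p in this direction, Siglech included, kept their call whichever library was dropped, as did 2.39% of all tested regions; these 12 were chosen for their p.

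Lower in MPP4, the region of smallest p lay 259 kb from the nearest protein-coding gene, Pdha2 (chr3:140950344-140950672), with 150.5, 106 and 132 CPM in WT MPP2 and 134, 143 and 84.9 in IκB– MPP2. MPP4 gave 54.5, 30.6 and 15.5 in WT and 15.02, 25.3 and 20.3 in IκB– recipients. Every MPP4 library was below every MPP2 library, and the difference was -2.33 ± 0.27 (adjusted p = 1.68e-07). A region 317 kb from Zeb2, a zinc finger repressor (chr2:45434167-45434636), separated the subsets in the same way, with 63.5 to 104 CPM (median 88.2) in MPP2 and 6.76 to 33.7 CPM (median 20.8) in MPP4 and a difference of -2.08 ± 0.29 (adjusted p = 7.35e-06).

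Other regions of the 12 with the smallest p in this direction were near Esf1, a nucleolar protein (-2.23 ± 0.31, adjusted p = 5.58e-06), near Sncaip, which encodes synphilin 1 (-1.64 ± 0.25, adjusted p = 2.53e-05), inside Frrs1, a ferric reductase (-2.20 ± 0.34, adjusted p = 3.49e-05), inside Dpy19l1, a protein mannosyltransferase (-2.24 ± 0.35, adjusted p = 4.4e-05), 134 kb from Stpg2 (-2.25), near Dppa4 (-1.95) and inside Ak7, an adenylate kinase (-2.24). Of all 12, which were chosen for their p, only Dppa4 had overlapping libraries; every MPP4 library stood below every MPP2 library at 0.969% of all tested regions. Each of the 12 kept its call whichever library was dropped, as did 2.39% of all tested regions. None of the 12 lay within 1 kb of the end of a protein-coding gene, though the region nearest to Zeb2 overlapped the promoter of Gm30728.

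Some genes held several called regions, a set picked after the values were seen. Among 306 genes with a region higher in MPP4, 17 had at least 2 and 1 had 3, and among 319 genes with a region lower in MPP4, 10 had 2. No share over genes with several tested regions is given beside these counts, so they are a description only. Of all tested regions 2.99% were called higher and 3.43% lower. The gene with 3 was Bcr, a signalling protein with kinase and GTPase-activating domains, at 1.05, 2.64 and 1.43. Others higher in MPP4 were Rassf2, a Ras-binding protein (1.44 and 1.16), Acod1, the enzyme that makes itaconate (2.42 and 1.12), Alox5ap, the activator of 5-lipoxygenase in leukotriene synthesis (1.32 and 1.57), Nfia, a nuclear factor I protein (2.18 and 1.25), and Zc3h12a, an RNase that degrades inflammatory transcripts (1.21 and 1.09). P2ry12, the ADP receptor of platelets, is a platelet gene outside the lists that was higher in MPP4, with 1.98 and 2.06 at regions that also lie inside Med12l. Genes with a pair lower in MPP4 included Abcc4, a nucleotide transporter (-1.56 and -1.26), Gypc, glycophorin C of the red cell membrane (-1.04 and -1.16), Dapp1, an adaptor of phosphoinositide signalling (-1.53 and -1.46), Tent5c, a poly(A) polymerase (-1.61 and -1.10), and Gli3, a factor of the Hedgehog pathway (-1.48 and -1.39).

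The comparison was also made within each recipient type. These contrasts set different libraries against each other, but they come from the same fit of all 12 libraries. They share its scaling, its filter and its estimate of spread, so they are not separate repeats. In WT recipients 6 regions were called (0.0489%): 1 higher in MPP4 (0.00815%) and 5 lower (0.0407%). With the replicate number as a block it was 30, 20 higher and 10 lower, so that the balance of directions turned. In IκB– recipients 516 were called (4.2%): 193 higher (1.57%) and 323 lower (2.63%). The difference between recipient types was called at 0 regions (0%) by edgeR, with 437 at an unadjusted p under 0.05 and a smallest adjusted p of 0.736, and at 0 by DESeq2 (179 unadjusted) and limma-voom (518 unadjusted). The unequal counts do not by themselves show that the effects differed. Unadjusted p-values under 0.05 were found at 913 regions in WT and 1922 in IκB– recipients, and the median SE of a difference was 0.381 in WT and 0.358 in IκB– recipients, against 0.260 combined.

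The 6 regions called in WT recipients included Snx5 (higher) and Gucy1b1, Cavin2 and those nearest to Pdha2 and Zeb2 (lower), and all 6 were called in IκB– recipients too. Cavin2 differed by -1.64 ± 0.33 in WT and -2.72 ± 0.38 in IκB– recipients, and Gucy1b1 by -2.52 ± 0.47 and -2.93 ± 0.50. Snx5 differed by 2.49 ± 0.51 and 1.84 ± 0.40. Of the 516 regions called in IκB– recipients, 485 had the same direction in WT recipients, against 63.6% of all tested regions, and 213 also had an unadjusted p under 0.05 there. Their median difference was 1.68 in IκB– and 0.89 in WT recipients among those higher, and -1.89 and -0.71 among those lower; they were chosen for their IκB– values, so these medians are not compared. Across all tested regions the differences in the recipient types had a Pearson r of 0.549 and a Spearman rho of 0.438, a description over regions that share libraries.

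The count in WT recipients was 0 without WT MPP4 replicate 2 or 3, 1 without WT MPP2 replicate 1 or 2 or WT MPP4 replicate 1, and in IκB– recipients it was 245 without IκB– MPP2 replicate 1, 316 without IκB– MPP4 replicate 1 and 112 without IκB– MPP4 replicate 3. The lineage regions given next had the same direction in both. Bcl11a gave 1.35 ± 0.56 in WT and 2.03 ± 0.45 in IκB– recipients, Ikzf1 0.94 ± 0.37 and 1.17 ± 0.31, and Cebpa 0.84 ± 0.36 and 1.28 ± 0.31. Slc14a1 gave -1.13 ± 0.42 and -1.48 ± 0.42, Pf4 -1.31 ± 0.51 and -1.52 ± 0.50, and Zfpm1 -0.67 ± 0.41 and -2.70 ± 0.61. The Zfpm1 values differed between recipient types by -2.03 ± 0.77 (unadjusted p = 0.0113, adjusted p = 1).

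The test of the difference between recipient types had its smallest p near Smtnl1, a smooth muscle protein (chr2:84811958-84812206), with 60.2, 29.7 and 41.9 CPM in WT MPP2 and 40.8, 63.5 and 61.4 in IκB– MPP2. MPP4 gave 38.9, 42.1 and 61.9 in WT and 6.01, 8.42 and 3.38 in IκB– recipients. There IκB– MPP4 was low while WT MPP4 was not, and the difference of differences was -3.24 ± 0.76 (adjusted p = 0.736). In the positive direction it was near Cenpe, a centromere motor (chr3:135191902-135192230), at 2.63 ± 0.71 (adjusted p = 0.769). Casp12, an inflammatory caspase gene, lay 1.94 kb from the region of smallest p in IκB– recipients (chr9:5343071-5343504), at -2.49 ± 0.35 there (adjusted p = 1.95e-05) and -0.70 ± 0.30 in WT recipients (adjusted p = 0.575).

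**Figure D4:**
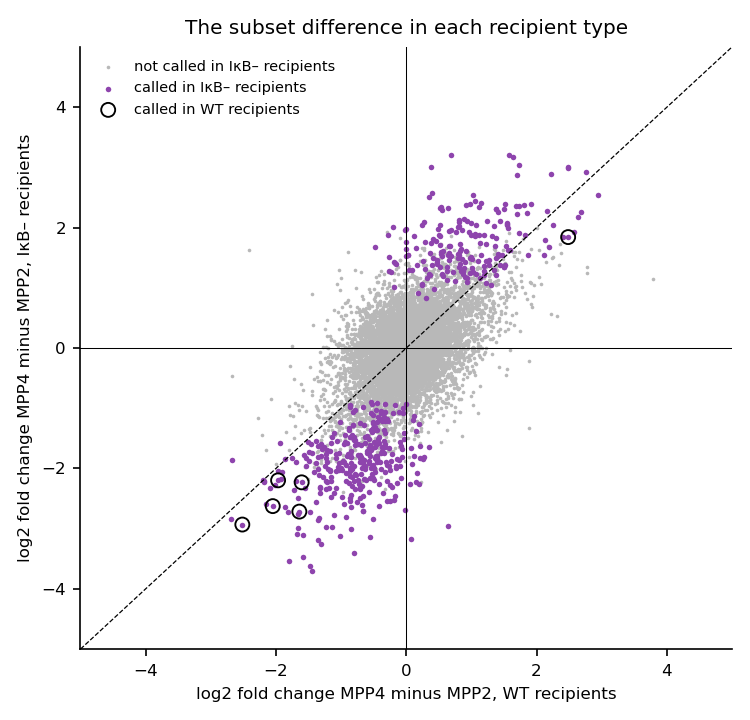
Each point is a tested region, with its log2 difference MPP4 minus MPP2 in WT recipients against that in IκB– recipients; the dashed line marks equal values. Regions called in IκB– recipients (purple, 516) fall mainly in the quadrants of equal sign (485), and the 6 called in WT recipients (rings) are all among them.

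HSC and MPP3 libraries took no part in the comparison and show where its regions stand in other subsets. WT MPP3 replicates 2 and 3 differed by less than the sampling noise (p = 0.67 in a chi-square test of 13121 regions) and were counted as 1 sample, so n was 6 for HSC and 5 for MPP3; the labels describe the HSC gate as CD150– and CD48–. At the 421 regions lower in MPP4, the median level was 63.4 CPM in MPP2, 27.2 in MPP4, 51.6 in HSC and 22.9 in MPP3, and HSC exceeded MPP3 at 400 of them (95.0%), against 50.6% of all tested regions. At the 367 regions higher in MPP4 the medians were 23.99 CPM in MPP2, 55.3 in MPP4, 27.1 in HSC and 42.7 in MPP3, and HSC exceeded MPP3 at 29 (7.90%). The levels of MPP2 and MPP4 are those the regions were chosen on and are given beside HSC and MPP3 as a description. IκB– HSC replicate 3 stood apart, with 1.05% of its counts in the regions lower in MPP4 against 2.10% to 3.33% in the other HSC libraries; without it HSC exceeded MPP3 at 408 and 35 regions. By recipient type, HSC exceeded MPP3 at 378 (89.8%) of the regions lower in MPP4 in WT and 393 (93.3%) in IκB– recipients, and at 23 (6.27%) and 68 (18.5%) of those higher in MPP4. At the regions higher in MPP4, the mean CPM of MPP3 was nearer to that of MPP2 than of MPP4 at 15.8% in WT and 57.2% in IκB– recipients, against 46.3% and 38.1% of all tested regions. The median level at those regions was 44.1 CPM in WT and 42.2 in IκB– recipients for MPP3. For MPP4, on which the regions were chosen, it was 46.9 and 65.6, and for MPP2 21.5 and 26.8. The difference between recipient types was not tested.

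Cavin2 reached 106 ± 60.5 CPM (SD, n = 6) in HSC and 9.17 ± 7.56 (n = 5) in MPP3, beside 135 ± 26.1 (n = 6) in MPP2 and 32.7 ± 17.6 (n = 6) in MPP4. One MPP3 library was at 0 and the others at up to 16.1 CPM, below the lowest HSC library at 27.5. For Gucy1b1 the levels were 61.2 ± 24.5 CPM (SD, n = 6) in HSC and 9.95 ± 7.77 (n = 5) in MPP3, beside 86.01 ± 23.6 (n = 6) in MPP2 and 12.4 ± 8.10 (n = 6) in MPP4. For Cebpa they were 40.2 ± 13.6 CPM (SD, n = 6) in HSC and 103 ± 18.7 (n = 5) in MPP3, beside 44.1 ± 12.8 (n = 6) in MPP2 and 93.4 ± 21.00 (n = 6) in MPP4, with every MPP3 library above every HSC library. Tmed3 reached 5.87 ± 6.09 CPM (SD, n = 6) in HSC and 38.5 ± 13.9 (n = 5) in MPP3, beside 9.87 ± 6.43 (n = 6) in MPP2 and 77.8 ± 37.2 (n = 6) in MPP4, and Bcl11a 21.5 ± 11.2 CPM (SD, n = 6) in HSC and 37.2 ± 11.9 (n = 5) in MPP3, beside 16.9 ± 7.29 (n = 6) in MPP2 and 53.7 ± 21.1 (n = 6) in MPP4, where the HSC and MPP3 ranges overlapped. At all 12 regions of smallest p that were lower in MPP4 the HSC mean exceeded the MPP3 mean, and at all 12 that were higher it did not.

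**Figure D5:**
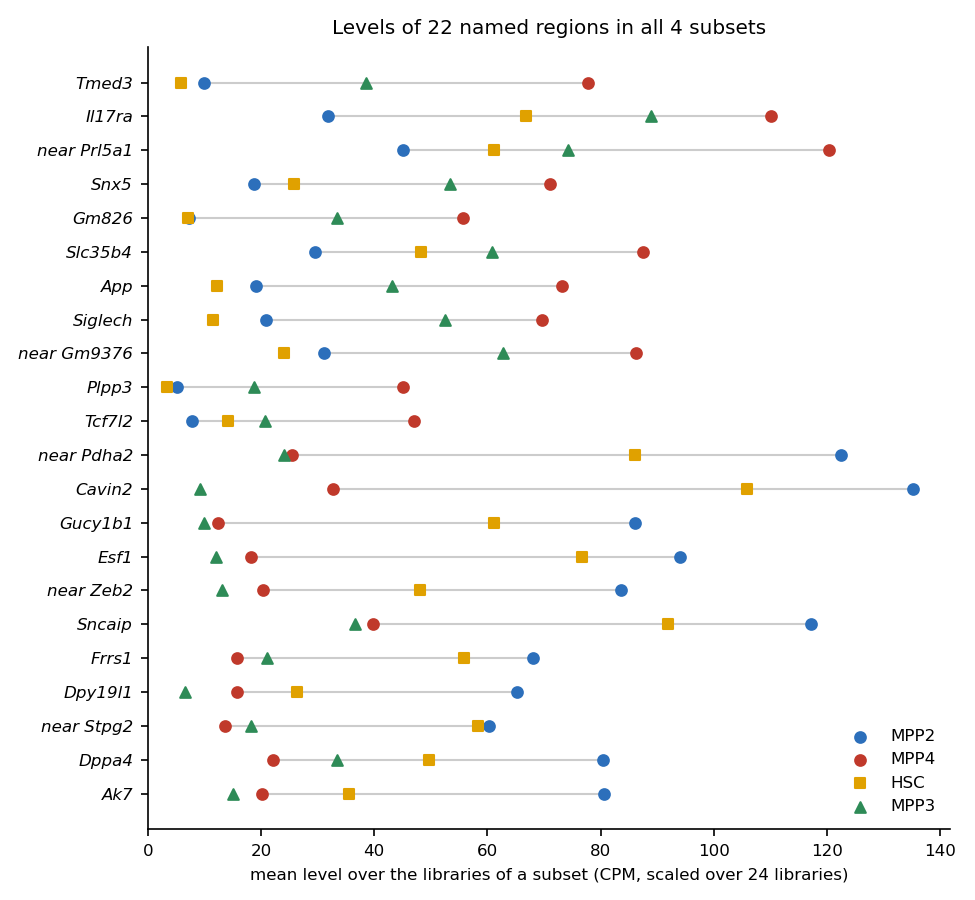
Mean level (CPM, scaled over all 24 libraries) of 11 of the 12 regions of smallest p in each direction, in MPP2, MPP4, HSC (n = 6) and MPP3 (n = 5). In the upper 11 rows MPP3 (green) stands above HSC (orange), and in the lower 11 rows HSC stands above MPP3.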

How the data were processed

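The deposited table holds whole-number ATAC-seq counts per region for all 24 libraries, made by the authors over regions shared by the libraries; the build is mm10, and Bowtie2, SAMtools, Picard, MACS2 2.1.0 and deepTools are named without roles, per the submitters' processing notes. The counting tool, the treatment of duplicates and any shift of read ends for the transposase are not given in the sources used here, nor is whether region starts count from 0 or 1, so coordinates are printed as the authors' table gives them. Duplicates and a Tn5 shift could change low counts, and each value rests on the counts of its library, so intervals and SEs do not cover steps before counting.

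Mitochondrial regions were dropped, regions were kept with filterByExpr of edgeR 4.0.16 (R 4.3.3) over the 4 groups, and counts were scaled by TMM. The additive fit of recipient type and subset on 12 libraries left 9 residual degrees of freedom for edgeR's robust quasi-likelihood F test, with Benjamini-Hochberg adjustment over all 12276 tested regions and a threshold of 0.05; group means gave the values within recipient types and the test of their difference. The SE is the log2 difference divided by the square root of F. CPM are counts scaled to 1000000 of the TMM-adjusted nuclear library size. A region belongs to a protein-coding gene that it overlaps or lies within 1 kb of, otherwise to the gene with the nearest end within 50 kb (RefSeq, GRCm38.p6). Deviations of same-numbered MPP2 and MPP4 libraries correlated at 0.133, 0.120 and 0.159 in WT recipients (other pairs at most 0.017), a pairing that comes from the data and not from the labels, so the WT count is also given with a replicate block.

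The members of the comparison, the 7 gene lists and the tests were chosen with earlier results of these data known. Named are the 12 called regions of smallest p in each direction, every called region of a listed gene, the regions of the sorting gate genes, the regions of smallest p within and between recipient types, and the regions of smallest p of the lineage genes given as not called; regions named outside this rule are said to have been chosen after their values were seen. Some items that the rule names are not reported here. Alternatives were other scalings (DESeq2 size factors, total counts, cyclic loess), DESeq2 1.42.0 and limma-voom (limma 3.58.1), other filters, all 24 libraries, a replicate block, depth as a covariate, autosomes only, and each library left out.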

Additional observations from a re-analysis of the deposited data

How the results depend on the processing

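The comparison over both recipient types, with 788 calls, gave 456 with cyclic loess, 505 with DESeq2, 485 with all 24 libraries in the fit and 70 (18 higher and 52 lower) where a region needed a mean of at least 20 counts (4925 regions tested), and 444 to 948 when 1 library was left out. Other settings gave 542 (depth as a covariate) to 1047 (replicate block, 531 higher and 516 lower). In WT recipients (6 calls) the count was 0 with cyclic loess, DESeq2, limma-voom, the filter of 20 counts or all 24 libraries, 1 with depth as a covariate and 30 with the replicate block, and 0 to 8 with 1 library left out. In IκB– recipients (516) it was 224 with cyclic loess (55 higher and 169 lower, against 193 and 323), 157 with DESeq2, 47 with the filter of 20 counts, 309 with all 24 libraries and 840 with the replicate block, 580 with limma-voom (313 higher and 267 lower), and 112 to 678 with 1 library left out. The difference between recipient types stayed at 0 calls in every setting run (115 to 619 regions at an unadjusted p under 0.05). The cause of these changes was not tested. The filter of 20 counts tests fewer regions. It left out 324 of the 367 regions called higher in MPP4 and 308 of the 421 called lower. The 18 and 52 calls under it are fewer than the main calls that reached a mean of 20. Calls were thus also lost at regions that were still tested. The median tested region held 16.7 counts per library, and 4925 of 12276 reached a mean of 20.

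Replicate numbers were not taken as pairs in IκB– recipients or over both types: deviations of same-numbered MPP2 and MPP4 libraries correlated at 0.262, 0.030 and 0.089 in IκB– recipients, and IκB– MPP4 replicate 2 correlated best with IκB– MPP2 replicate 3 (0.094).

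With regions within 1 kb of a gene end alone, calls were 0 of 15 for the lymphoid list, 1 of 18 for the megakaryocyte and erythroid list, 1 of 9 for the myeloid, 0 of 9 for the stem cell, 1 of 17 for the cell cycle list and 0 of 1 for markers of other cells, against 104 of 7109 (1.46%) of all such regions. With 1 library left out, an alternative chosen after seeing the data, they were 0 to 2 for the sorting gate, 3 to 8 for the lymphoid, 6 to 13 for the megakaryocyte and erythroid, 1 to 2 for the myeloid, 2 to 4 for the stem cell and 1 to 3 for the cell cycle list, and 1 for markers of other cells.

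Of 102 named regions that were called, none changed sign in any setting and 64 kept their call in every fit that dropped a library. Runx3, Mef2c, Ikzf2, Samd14 and Csf1r lost theirs with all 24 libraries, cyclic loess and DESeq2. Signs changed at regions that were not called. The first Kit region ran from -0.10 to 0.20 with 1 library left out (-0.09 without WT MPP4 replicate 3) and the second from -0.34 to 0.0493. Ptprc was 0.0621 with depth as a covariate and -0.25 to 0.0212 with 1 library left out (0.00386 without IκB– MPP4 replicate 2). Epor was 0.0621 with cyclic loess, and Irf8 was 0.0135 with the replicate block and -0.50 to 0.13 with 1 library left out. Mecom was -0.00811 with depth as a covariate and -0.17 to 0.25 with 1 library left out. MPP4 minus MPP2 in percent of counts near gene ends was -0.699, and -1.84 to 0.652 with 1 library left out (0.652 without WT MPP4 replicate 1), inside genes -0.271 to 0.581 (-0.0580 without IκB– MPP4 replicate 1) and outside genes -0.381 to 1.26.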
